A study of Mus musculus with 18 samples.

Results

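The genes that sense oxygen through hypoxia-inducible factor (HIF) were examined in kidney RNA of CD-1 mice, an outbred stock. The members were listed by name: the prolyl hydroxylases *Egln1*, *Egln2*, and *Egln3*, the asparaginyl hydroxylase *Hif1an*, the HIF subunits *Hif1a*, *Epas1*, and *Arnt*, the ubiquitin ligase subunit *Vhl*, and the hormone gene *Epo*. They are 9 of the 78239 genes listed. Dams of the LP group ate 8% protein and dams of the NP group 18% protein through gestation and lactation, and all offspring were weaned to the NP diet and studied at 6 wk. The males were 5 LP and 5 NP mice and the females 5 LP and 3 NP mice, with 1 library made from a piece of the left kidney of each mouse. No transgene or mutant allele was used, and every mouse, NP mice included, had been given cationic ferritin. The last injection was 1.5 h before collection in males and 24 h before collection in females, so sex and this interval cannot be told apart.

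Prolyl hydroxylases use oxygen, iron, and oxoglutarate to hydroxylate the alpha subunits of HIF, which lets the VHL protein bind them and mark them for destruction. The enzyme encoded by *Hif1an*, known as factor inhibiting HIF, hydroxylates an asparagine that alpha subunits need to recruit coactivators. When oxygen is low, alpha subunits escape both reactions, pair with ARNT, and switch on genes for glucose use, vessel growth, and red cell production, along with some of the prolyl hydroxylases themselves. Much of this control acts on protein, which RNA counts do not measure. In the kidney, *Epas1* is known for its expression in endothelial and interstitial cells, *Hif1a* for its expression in tubules, and *Epo* for its expression in a small population of interstitial cells.

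A promoter window of 300 bases, 250 before a listed start and 50 after it, was given by RefSeq (table build GRCm38.p6) for 8 of the 9 members, with a second window for *Egln2*. The listed start can differ from the edge of the gene span given below. For *Egln1*, *Hif1a*, and *Epo*, among others, the window lies inside that span. *Epas1* had no entry. Each printed window matched GRCm39 exactly and only once. The core of the element that HIF binds was searched as ACGTG or GCGTG on both strands, and hits that overlap were counted separately. Of the 9 windows of members, 7 held it, against 43.8% of all 32851 windows in the table. The windows below belong to *Egln1*, *Egln3*, and *Hif1an*, the first because it is the most even of the prolyl hydroxylases across these mice and the others because they gave the largest ratio and the separated groups in the diet comparison of males. Capitals mark the searched letters on the printed strand.
Egln3: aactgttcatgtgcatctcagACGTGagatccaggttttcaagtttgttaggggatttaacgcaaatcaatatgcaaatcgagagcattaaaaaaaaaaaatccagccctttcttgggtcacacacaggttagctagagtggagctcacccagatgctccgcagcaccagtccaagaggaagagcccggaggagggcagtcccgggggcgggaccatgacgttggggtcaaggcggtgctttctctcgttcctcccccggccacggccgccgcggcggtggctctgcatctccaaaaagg
Egln1: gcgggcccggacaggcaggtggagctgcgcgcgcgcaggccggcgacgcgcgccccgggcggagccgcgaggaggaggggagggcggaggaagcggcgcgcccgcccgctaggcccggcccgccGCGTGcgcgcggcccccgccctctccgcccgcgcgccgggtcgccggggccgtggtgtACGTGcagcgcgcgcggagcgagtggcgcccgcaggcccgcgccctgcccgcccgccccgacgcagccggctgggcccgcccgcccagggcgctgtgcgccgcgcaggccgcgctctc
Hif1an: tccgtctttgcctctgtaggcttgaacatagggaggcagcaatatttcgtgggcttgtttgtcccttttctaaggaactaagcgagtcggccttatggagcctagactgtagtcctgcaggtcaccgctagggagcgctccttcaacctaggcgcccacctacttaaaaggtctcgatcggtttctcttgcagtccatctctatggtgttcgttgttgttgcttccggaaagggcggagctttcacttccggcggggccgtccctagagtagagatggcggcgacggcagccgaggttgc
The *Egln3* window lies on the minus strand at chr12:54250611-54250910 (GRCm39) and held ACGTG once, from -229 to -225 relative to the listed start. The *Egln1* window, on the minus strand at chr8:125675944-125676243, held GCGTG and ACGTG once each, from -126 to -122 and from -68 to -64. The *Hif1an* window, on the plus strand at chr19:44551043-44551342, held neither, which says only that these letters are not in this window.

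All positions of genes are those of GENCODE vM39 on GRCm39, and all 9 members are protein coding. *Egln1* spans 125635308 to 125676865 of chromosome 8, *Egln2* spans 26853588 to 26866408 of chromosome 7, and *Egln3* spans 54225767 to 54250673 of chromosome 12. *Hif1an* lies at 44551286 to 44568723 of chromosome 19, *Hif1a* at 73948149 to 73996321 of chromosome 12, and *Epas1* at 87061087 to 87140838 of chromosome 17. *Arnt* is found at 95341365 to 95404551 of chromosome 3, *Vhl* at 113600920 to 113608599 of chromosome 6, and *Epo* at 137481282 to 137531772 of chromosome 5. The library did not keep strand, so reads on exons shared with another gene cannot be assigned. *Hif1a* shares 695 exon bases, 8.33% of its own, with the antisense gene *Gm15283*, and 19.4% more *Hif1a* reads were counted when each strand was counted separately. *Egln2* shares 1620 exon bases with *Cyp2t4* on the other strand, *Egln1* 117 bases with *Gm63997*, and *Vhl* 9 bases with *1700015O11Rik*, and their counts differed by less than 1.5% between these ways of counting.

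Each library held between 14050486 and 23562411 reads counted on genes. It was known from an earlier analysis that NP female 3 and the first and second LP females, LP female 1 and LP female 2, stood apart, and the summed counts per 1000000 reads (CPM) of 6 glucocorticoid-responsive genes were between 241 and 456 in these 3 females and between 997 and 1336 in the other 5. The 7 genes of the thick ascending limb list, a check of the labelled tissue, summed to between 2231 and 8032 CPM in all 18 libraries, and none was at 0 in any group. The 6 proximal tubule genes summed to between 6677 and 11572 CPM. In bulk tissue, fewer cells of a type and less RNA per cell cannot be told apart.

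Levels of different genes were compared as reads per kilobase of exon, scaled to 1000000 reads on genes (RPKM), with all annotated exons of a gene merged. *Epas1* had the highest level among the members, 19.1 ± 5.67 RPKM (SD, n = 18), and exceeded *Egln2*, the next gene, in 16 of 18 kidneys. *Egln2* at 10.1 ± 1.30 RPKM, *Hif1a* at 9.85 ± 2.32 RPKM, and *Egln1* at 9.26 ± 0.62 RPKM formed a middle tier whose order changed from mouse to mouse. *Egln2* was above *Hif1a* in 11 of 18 mice and *Hif1a* above *Egln1* in 8 of 18. These 3 levels therefore did not differ beyond their spread. They leave out *Hif1a* reads on exons shared with *Gm15283*. When each strand was counted separately, *Hif1a* was at 10.1 ± 2.51 RPKM, *Egln2* at 8.84 ± 1.12 RPKM, and *Egln1* at 8.02 ± 0.54 RPKM. *Hif1a* was then above *Egln2* in 9 of 18 mice and above *Egln1* in 15 of 18, and *Epas1* stayed highest by mean at 16.5 ± 4.94 RPKM. These values were scaled to the summed reads of both strands, a larger total, so their sizes cannot be set against those above. The reads of *Egln1* and *Egln2* themselves rose by 0.07% and 1.47%. *Egln1* was above *Vhl* in 18 of 18 mice, and *Vhl*, at 5.28 ± 0.57 RPKM, was above *Hif1an*, at 4.85 ± 0.43 RPKM, in 14 of 18. *Hif1an* exceeded *Arnt* in 16 of 18 mice. *Arnt* at 3.84 ± 0.81 RPKM and *Egln3* at 3.84 ± 1.58 RPKM could not be ordered, with *Arnt* higher in 9 of 18 mice. By counts without regard to strand, *Epas1* accounted for between 51.4% and 74.5% of the summed RPKM of the 2 alpha subunits in the 10 males. That share also leaves out *Hif1a* reads on exons shared with *Gm15283*. When each strand was counted separately, *Hif1a* was above *Epas1* in 1 of 18 mice.

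**Figure D1:**
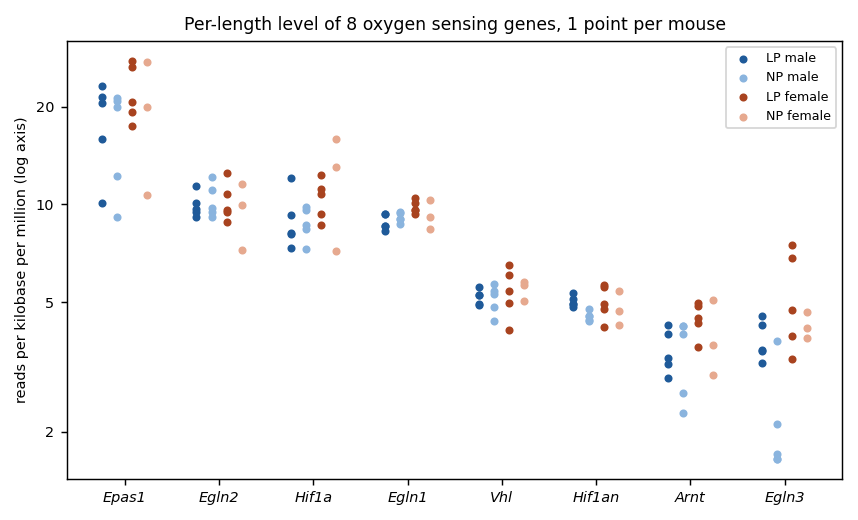
Level of 8 members in RPKM (log axis), with 1 point per mouse and a colour for each of the 4 groups. *Epas1* sat highest at a mean of 19.1 RPKM, the points of *Egln2*, *Hif1a*, and *Egln1* overlapped near 10, and *Egln3* had the widest relative spread. *Epo* is not drawn because it was at 0 in 16 of 18 libraries.

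The 3 prolyl hydroxylases were not equally variable. *Egln1*, the main HIF prolyl hydroxylase in most cells, was the steadiest, with normalized counts (counts divided by DESeq2's size factors) of 1343 to 1594 in the 10 males and 1162 to 1558 in the 8 females. *Egln2*, a prolyl hydroxylase that is not known for induction by hypoxia, ranged from 1203 to 1729 in males and from 870 to 1475 in females, where the lowest value was that of NP female 2. *Egln3*, whose RNA is strongly induced by HIF in many cells, ranged from 79.6 to 216 in males and from 149 to 300.5 in females. Its coefficient of variation over all 18 mice was 35.8%, against 14.6% for *Egln2* and 7.82% for *Egln1*. Of the summed RPKM of the 3 genes, *Egln3* made up 16.9 ± 2.39% in males of the LP group and 9.85 ± 2.93% in males of the NP group (SD, n = 5 each). In females it made up 20.4 ± 4.60% with LP (n = 5) and 18.4 ± 2.03% with NP (n = 3).

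In the plot of members by group, maternal diet was compared within each sex. *Egln3* had the largest diet ratio among the members in males. Its normalized counts in LP males 1 to 5 were 167, 175, 216, 205, and 154. In NP males 1 to 5 they were 107, 79.9, 81.7, 79.6, and 187. All NP males but 1 lay below every LP male, whereas NP male 5 lay within the LP range, so the groups overlapped. *Egln3* was 1.73 times as high in LP as in NP males by edgeR's quasi-likelihood test, a log2 ratio of 0.79 (SE 0.24, 95% interval 0.27 to 1.31, unadjusted p = 0.0062). With Benjamini-Hochberg adjustment over 13181 genes the edgeR p was 0.9996, and 63 genes had a smaller unadjusted p. When diet labels were permuted exhaustively (exact test, two-sided), the p for *Egln3* was 0.0317, against a smallest possible p of 0.0079.

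Without NP male 5, the *Egln3* log2 ratio in males was 1.09 with an edgeR adjusted p of 0.0733, so it missed the threshold with and without that library. NP male 5 also had the highest sum for the collecting duct and inner medulla list among the males, 1067 CPM over 6 genes, none of them at 0 in any group, against 366 to 736 CPM in the other NP males and 421 to 777 CPM in LP males. With that list as a covariate, the *Egln3* log2 ratio was 0.91 (edgeR adjusted p = 0.744). In the same comparison, 6 of 6 interstitial fibroblast and pericyte genes had a positive log2 ratio. Of these, 0 were called and 3 had an edgeR unadjusted p under 0.05, as did 506 of all 13181 genes tested. The list summed to 296 to 478 CPM in LP males and 229 to 357 CPM in NP males with 0 genes at 0. This lean was not particular to that list. Positive ratios were found for 5 of 5 podocyte genes (2 with an unadjusted p under 0.05) and 4 of 4 distal convoluted tubule genes (1). The same held for 5 of 5 endothelial and 5 of 6 proximal tubule genes (0 each). Of the collecting duct and inner medulla genes 1 of 5 was positive, and of the interferon genes 1 of 8. The part of the interstitial list in the *Egln3* values was not tested. The study reported *Egln3* and *Hif1an* as up-regulated in LP males. It tested them as candidate genes, with adjustment within a subcategory of candidates, whereas the adjustment here is over all genes. The adjustment is not the only difference. For *Hif1an* the edgeR p was 0.0727 before any adjustment, and its SE of 0.07 was larger than the one the study printed. The study's PCR assays in males also placed *Hif1an* among genes with a diet difference or a trend toward one. The sequencing calls of the study used these same mice, so the ratios here are not independent evidence of a direction.

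*Hif1an* had a small diet ratio in males but separated groups. Normalized counts were 976, 1027, 1042, 975, and 1068 in LP males 1 to 5. In NP males 1 to 5 they were 944, 948, 951, 922, and 914. All 5 LP males lay above all 5 NP males, which made *Hif1an* 1 of 8 members tested whose groups were separated in this direction. Over all genes, 0.258% had every LP male above every NP male and 0.455% had every LP male below every NP male, with 0 members in the latter. The exact permutation p was 0.0079, the smallest that 5 against 5 mice allow. Separated groups fix it at that value, so it restates the separation. The log2 ratio was 0.13 (SE 0.07, 95% interval -0.01 to 0.28), a 1.10-fold ratio. The edgeR p was 0.0727 unadjusted and 0.9996 adjusted. In females, *Hif1an* ranged from 807 to 1031 in LP mice and from 746 to 1035 in NP mice, and the groups overlapped.

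**Figure D2:**
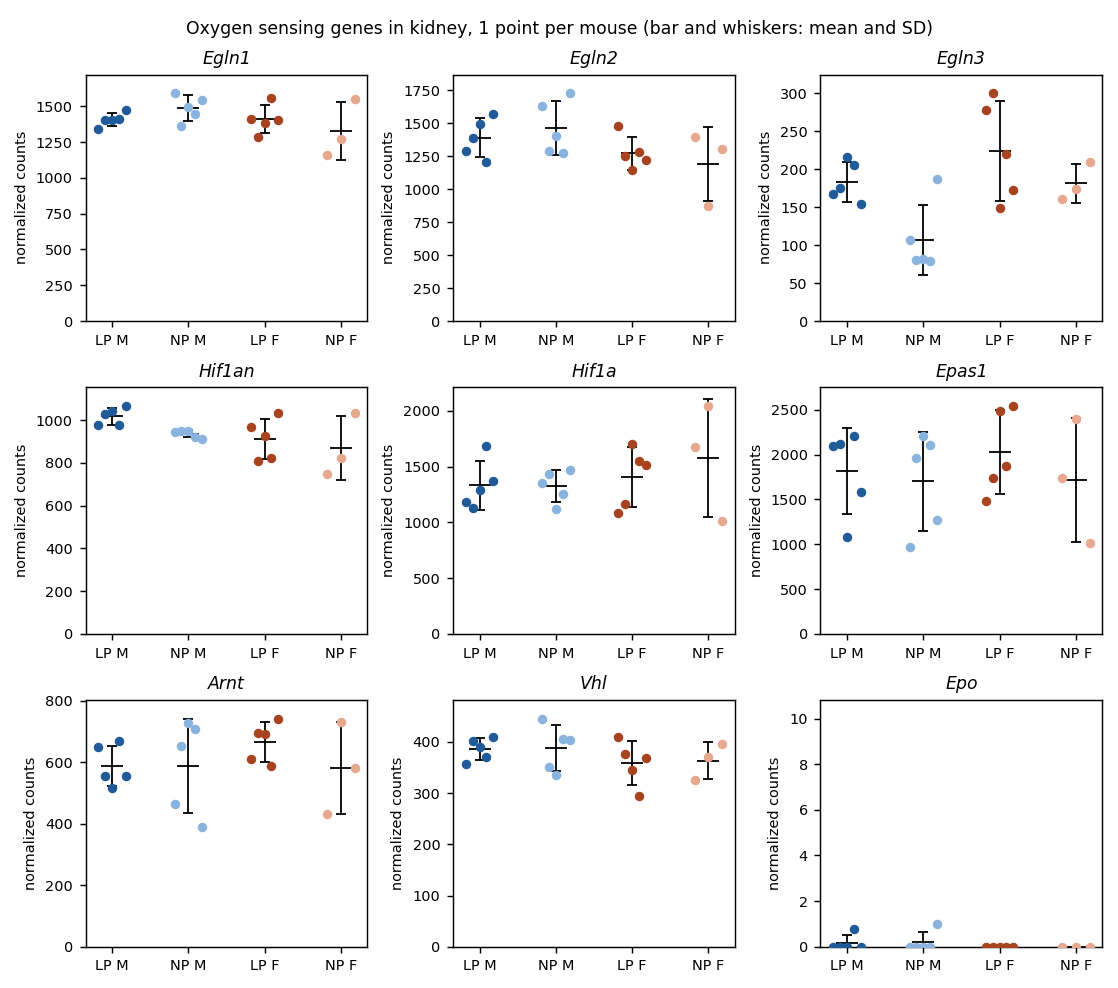
Normalized counts (y axes, linear, from 0) of the 9 members by sex (M, F) and maternal diet (LP, NP), with 1 point per mouse and the mean and SD as bar and whiskers. For *Egln3*, 4 of 5 NP males lay between 79.6 and 107 and NP male 5 at 187, and for *Hif1an* every LP male lay above every NP male.

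No other member had a log2 ratio beyond 0.11 in either direction in males. *Hif1a*, the alpha subunit known for driving glycolytic genes, ranged from 1127 to 1689 in LP males and from 1119 to 1474 in NP males. Its log2 ratio was 0.02 (SE 0.12). *Vhl*, which recognises hydroxylated alpha subunits, ranged from 357 to 409 in LP males and from 336 to 446 in NP males, with a log2 ratio of 0.00 (SE 0.10). *Egln1* and *Egln2* had log2 ratios of -0.07 each (SE 0.07 and 0.11). By edgeR, 0 of 8 members were called in males at an adjusted p under 0.05, against 0.0379% of 13181 genes, 1 member had an unadjusted p under 0.05, and DESeq2 and limma-voom also called 0.

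*Epas1*, the alpha subunit tied to *Epo* and to vessels, differed more between mice of a group than between diets. LP males 1 to 5 had 2099.9, 2123, 1081, 2206, and 1584 normalized counts. NP males 1 to 5 had 969.6, 1963, 2207, 2107, and 1269.7. LP male 3, NP male 1, and NP male 5 were well below the rest. *Arnt*, the shared partner of both alpha subunits, was also lowest in the same NP males, 1 and 5, with 463 and 389.97 normalized counts against 653 to 726 in the other NP males. In LP males *Arnt* ranged from 516 to 668 and was lowest in LP male 3, as *Epas1* was. The diet log2 ratios in males were 0.11 (SE 0.25) for *Epas1* and 0.01 (SE 0.17) for *Arnt*.

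The males with the lowest *Epas1* values, NP male 1 and LP male 3, had the least RNA of endothelial genes. The endothelial list (*Pecam1*, *Cdh5*, *Kdr*, *Emcn*, and *Tek*, none at 0 in any group) summed to 106 CPM in LP male 3 and 112 CPM in NP male 1, and to between 150.2 and 247 CPM in the other males. Across the 10 males, *Epas1* followed this sum on log2 scales with a Pearson r of 0.94 (permutation p = 0.00054, adjusted p = 0.095) and a Spearman rho of 0.70 (permutation p = 0.03, adjusted p = 0.362). Without NP male 1 and LP male 3, the samples farthest from the median sum, r was 0.84. Across the 8 females r was 0.77 (exact permutation p = 0.0287, adjusted p = 0.24) and rho was 0.57 (exact permutation p = 0.151, adjusted p = 0.429), and without LP female 4 and NP female 3 r was 0.56. These are 2 of 176 relations between a tested member and a marker list within a sex, of which 0 had an adjusted p under 0.05, and they were chosen after their values were seen. Mice of both diets are spread along the plot of *Epas1* against the endothelial sum, and within males the LP range of 106 to 247 CPM covered the NP range of 112 to 219.7.

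**Figure D3:**
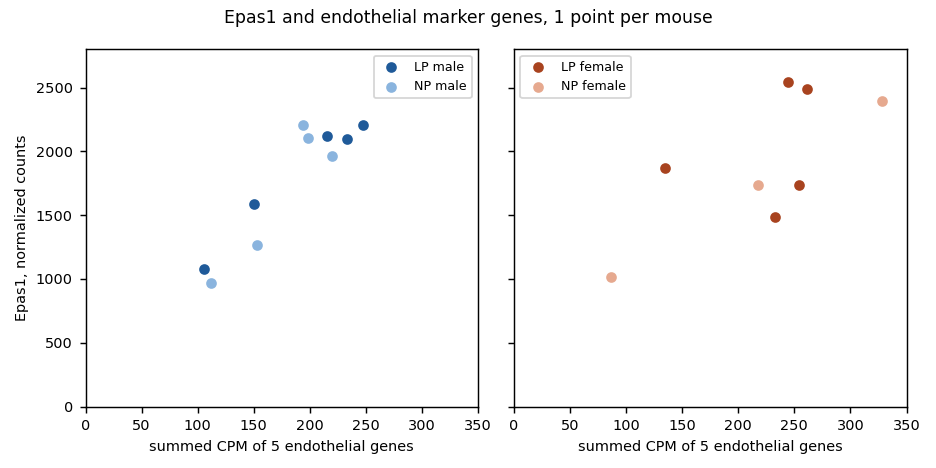
Normalized counts of *Epas1* (y axis) against the summed CPM of 5 endothelial genes (x axis) in 10 males (left) and 8 females (right), with 1 point per mouse coloured by diet. The males with the lowest endothelial sums, 106 and 112 CPM, had the lowest *Epas1*, 1081 and 969.6, and the scatter was wider in females.

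The same comparison in females had 5 LP and 3 NP mice. *Egln3* was at 278, 300.5, 149, 219.7, and 172 normalized counts in LP females 1 to 5 and at 161, 173, and 210.0 in NP females 1 to 3. The highest LP values were those of LP female 1 and LP female 2, and the groups overlapped. Its log2 ratio was 0.29 (SE 0.26, 95% interval -0.30 to 0.87), and it was 0.08 without the 3 females that stood apart. *Hif1a* had the lowest ratio, a log2 value of -0.19 (SE 0.24), with LP females between 1086 and 1705 and NP females at 1676, 2048, and 1010.4. With the interferon list as a covariate the *Hif1a* value was -0.057. *Epas1* had a log2 ratio of 0.22 (SE 0.29), which was 0.38 with that covariate (edgeR unadjusted p = 0.0452, adjusted p = 0.362). *Arnt* had one of 0.18 (SE 0.19), which was 0.48 with limma-voom (unadjusted p = 0.0207, adjusted p = 0.241) and ran from 0.016 to 0.40 with 1 library left out. The remaining members, *Egln1*, *Egln2*, *Hif1an*, and *Vhl*, lay between -0.03 and 0.08.

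By edgeR, 0 of 8 members were called in females, against 0% of the 13510 genes tested, 0 members had an unadjusted p under 0.05, and DESeq2 and limma-voom called 0 members as well. Complete separation was seen for 0 of 8 members in either direction, whereas 2.04% of all genes had every LP female above every NP female and 1.03% had every LP female below. The smallest exact p that 5 against 3 mice allow is 0.0179. Whether the diet effect differed by sex was tested with an interaction term. For *Egln3* the female minus male difference of log2 ratios was -0.50 (SE 0.37, 95% interval -1.28 to 0.28, edgeR adjusted p = 0.977). No member was called for this interaction (0 of 8), against 0.0158% of 12665 genes, and 0 members had an unadjusted p under 0.05. DESeq2 and limma-voom called 0 as well. A diet effect confined to 1 sex was therefore not shown for any member.

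**Figure D4:**
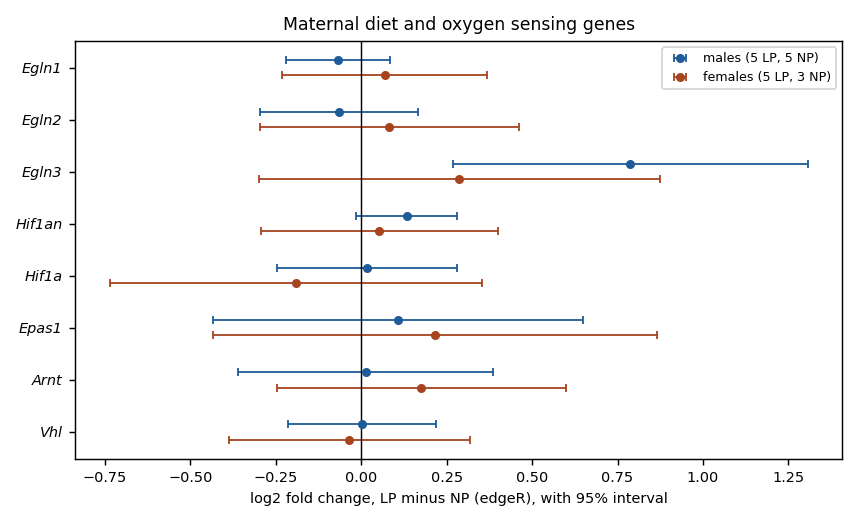
Log2 ratio of LP to NP (x axis) for 8 members in males (5 LP, 5 NP) and females (5 LP, 3 NP), with edgeR's 95% interval as the bar. Only the interval for *Egln3* in males, from 0.27 to 1.31, leaves out 0, and no member passed the adjusted threshold in either sex.

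*Epo* could not be measured in these kidneys. It had 0 reads in 16 libraries and 1 read each in LP male 4 and NP male 5, or 2 of 314344050 reads in all. A count of 0 allows up to 3 reads, or between 0.127 and 0.214 CPM depending on the library, for counting error only. *Gnb2* shares 372 of the exon bases of *Epo*, 33.1% of them, on the same strand, and reads on those bases were counted on neither gene. Over the remaining 751 bases, a count of 3 is a level of between 0.170 and 0.284 RPKM. No diet or sex comparison was possible for this hormone gene, and 8 of the 9 members passed the minimum of 10 counts in every library.

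Between males and females, *Egln3* was the one member called by edgeR. It ranged from 79.6 to 216 normalized counts with a median of 161 in males, and from 149 to 300.5 with a median of 192 in females. The males with the highest values lay within the female range, so the sexes overlapped. The log2 ratio of males to females was -0.57 (SE 0.19, 95% interval -0.96 to -0.18, edgeR adjusted p = 0.0214). That is 1 of 8 members called, or 0 higher and 1 lower in males, against 38.7% of 12665 genes called in either direction, 18.9% higher and 19.8% lower, so the share of members was below that of all genes. The *Egln3* call did not hold without the 3 females that stood apart (log2 ratio -0.34, edgeR adjusted p = 0.171), nor without NP female 3 alone (-0.51, adjusted p = 0.0553). Among LP mice the log2 ratio was -0.32 (edgeR adjusted p = 0.41) and among NP mice -0.82 (edgeR adjusted p = 0.0405).

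*Hif1a*, by contrast, was not called by edgeR over all mice but was without some females, and limma-voom called it over all mice. Its log2 ratio of males to females was -0.20 (SE 0.13, edgeR adjusted p = 0.219) over all mice. Without the 3 females that stood apart it was -0.41 (edgeR adjusted p = 0.0044), and *Hif1a* was then called lower in males, as it was without NP female 3 alone (-0.33, adjusted p = 0.0285). Those 3 females had 1086, 1165, and 1010.4 normalized counts of *Hif1a*, the lowest among females, and the other 5 had between 1517 and 2048. Of the 7 thick ascending limb genes, 4 were called lower in males, and of the 5 podocyte genes 5 were, against 19.8% of all genes tested. The thick ascending limb list summed to 2231 to 4405 CPM in males and 2521 to 8032 CPM in females, and its part in the sex comparison was not tested. The other 6 members had log2 ratios between -0.12 and 0.17, and edgeR called 0 of them. With limma-voom *Hif1an* was called higher in males (log2 ratio 0.17, adjusted p = 0.0337).

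Among 16 other genes of the HIF pathway, 14 had at least 10 counts in every library. By diet, edgeR called 0 of 15 tested in males and 0 of 15 in females (0 of 14 for the interaction), with 0 and 1 at an unadjusted p under 0.05. The latter was *Arnt2*, a paralogue of *Arnt*, with a log2 ratio of 0.49 in females (SE 0.17, edgeR adjusted p = 0.886). By sex, 5 of 14 were higher and 2 lower in males, where 18.9% of all genes tested were higher and 19.8% lower. *Hsp90aa1* and *Hsp90ab1*, the chaperones that hold alpha subunits, were both higher in males, with log2 ratios of 0.88 (SE 0.14) and 0.70 (SE 0.10). *Hsp90ab1* ran from 21484 to 33594 normalized counts in males and from 12345 to 18709.8 in females.

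*Cul2*, the scaffold of the VHL ligase, was also higher in males, with 698 to 934 normalized counts against 448 to 658 in females and a log2 ratio of 0.51 (SE 0.08). *Siah1a* and *Siah2*, ligases that mark prolyl hydroxylases for destruction, had log2 ratios of 0.36 (SE 0.09) and 0.29 (SE 0.10). *Cited2*, which competes with alpha subunits for coactivators, was lower in males, with a median of 792 against 1381 normalized counts and a log2 ratio of -0.78 (SE 0.10). *Rack1*, which promotes loss of *Hif1a* protein apart from oxygen, had a log2 ratio of -0.31 (SE 0.12). The edgeR adjusted p of these 7 genes ran from 7.3e-06 to 0.0453. For these genes too, sex and time since injection cannot be told apart.

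No HIF target gene was called by diet. Of 47 listed, 45 were tested, and edgeR called 0 by diet in either sex and 0 for the interaction. DESeq2 and limma-voom called 0 in each. Few genes of any kind were called by edgeR. Their share was 0.0379% of 13181 when LP and NP males were compared, and 0% of 13510 for the female mice. The interaction term gave 0.0158% of 12665. A count of 0 among 45 targets therefore does not show that diet left them unchanged. The median log2 ratio over the 45 was 0.01 in males and -0.01 in females, with 26 and 21 positive. At an unadjusted p under 0.05 there were 0 in males and 3 in females, namely *Adm*, *Bhlhe40*, and *Car9*, with log2 ratios of -0.46, 0.47, and -0.89. The interaction had 2, *Pgk1* at 0.30 and *Loxl2* at -1.09. These 5 genes were named after their values were seen.

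By sex, 10 of the 45 target genes were higher in males and 6 were lower, 35.6% in all against 38.7% of all genes, a share near that of all genes. Within glucose use the directions were mixed, with 4 of 18 tested genes higher and 5 lower. *Ldha*, which makes lactate, had from 12523 to 18381 normalized counts in males and from 7643 to 10760.3 in females, with a log2 ratio of 0.63 (SE 0.10). *Pfkfb4*, *Tpi1*, and *Gpi1*, glycolytic enzymes or their regulators, had log2 ratios of 0.70, 0.52, and 0.26. The glucose transporter *Slc2a1* and the kinase *Pdk1*, which keeps pyruvate from mitochondria, were lower in males, with log2 ratios of -0.54 (SE 0.15) and -0.57 (SE 0.20). *Pkm* and *Hk1* were lower by log2 ratios of -0.52 and -0.42. *Pfkl*, the liver-type phosphofructokinase, was lower as well (-0.37).

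Among vessel and matrix targets, 3 of 13 were higher in males and 0 lower, where 18.9% of all genes tested were higher and 19.8% lower. The 3 were *Plod2* with a log2 ratio of 0.58 (SE 0.13), *P4ha2* with 0.36, and *Plod1* with 0.23, which modify collagen. Other collagen-modifying genes of the list, *P4ha1* (0.10), *Lox* (0.02), and *Loxl2* (-0.39), were not called. *Vegfa*, the main vessel growth factor, had a log2 ratio of -0.30 (SE 0.12, edgeR adjusted p = 0.0563). The list of survival, acid, iron, and feedback targets had 3 of 14 higher and 1 lower. *Tfrc*, the transferrin receptor, ran from 1636 to 3514 normalized counts in males and from 844 to 1382 in females. Its log2 ratio was 1.10 (SE 0.14, edgeR adjusted p = 1.4e-05). *Hmox1*, which degrades heme, had a median of 1861 in males and 558 in females, with a log2 ratio of 1.30 (SE 0.40, edgeR adjusted p = 0.0147), and its highest female reached 1769. The Myc antagonist *Mxi1* was higher (0.25), and the feedback repressor *Bhlhe40* was lower (-0.35). All of these mice had received a protein that carries iron, at an interval that differed by sex, so for *Tfrc* and *Hmox1* sex and interval cannot be told apart. The number of targets called by sex was 4 when at least a 1.5-fold change was also required, and all 4 of these were higher in males. With that requirement 2370 of all 12665 genes were called in either direction, against 4900 without it. Without the 3 females that stood apart, 12 targets were lower in males instead of 6, and 4878 of all 12949 genes were called in either direction.

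**Figure D5:**
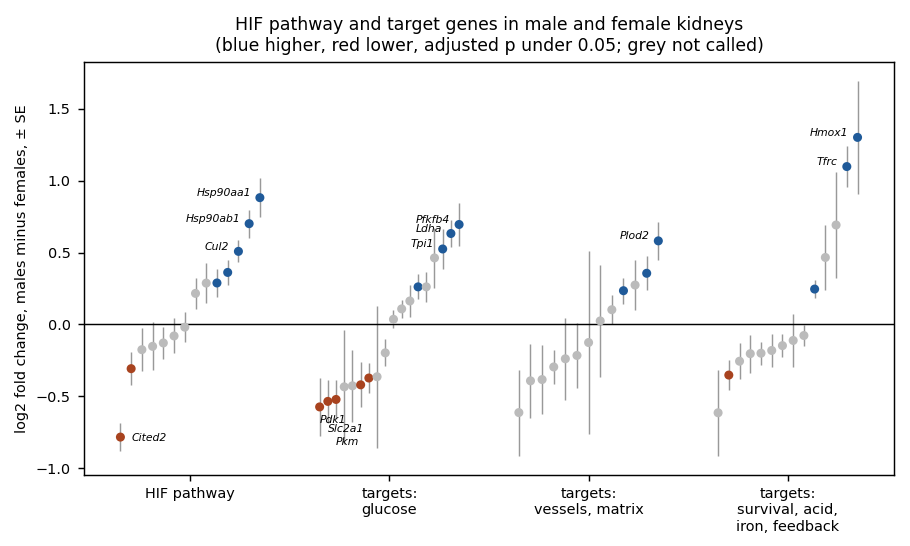
Log2 ratio of males to females (y axis, with SE) for each tested gene of the HIF pathway list and of 3 HIF target lists (x axis), with genes called higher in males in blue, lower in red, and the rest in grey. *Tfrc* at 1.10 and *Hmox1* at 1.30 stood highest, *Cited2* at -0.78 lowest, and the glucose list had called genes on both sides of 0.

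The genes most like *Egln3* were sought by the Pearson correlation of log2(CPM + 1) over the 10 males after each diet mean was removed. Of 12664 genes, *Dhrs3* (r = 0.93), *Nelfe* (0.93), *Fgfr1op2* (0.93), *Ppp1r14a* (0.92), and *Hps6* (0.91) were the highest, and as the top of so many they are a description. In the 8 females the same correlations were 0.43, 0.68, 0.58, 0.86, and -0.40. The other members were not close to *Egln3* by this measure in males, with r from -0.70 for *Arnt* to 0.55 for *Egln2*. The points share library depth and tissue makeup.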

How the data were processed

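Kidney RNA was poly(A)-selected and made into non-directional libraries, 1 per mouse. The authors trimmed reads, aligned them to GRCm39 with GENCODE vM36 using STAR (version not given in the sources used here), and deposited raw read counts per gene without normalization. Reads counted on no single gene, 28.6% to 36.1% of each library, were left out. Counts without regard to strand were tested with edgeR 4.0.16 (R 4.3.3; quasi-likelihood, TMM) on genes reaching 10 counts in each library of a comparison, with Benjamini-Hochberg adjustment over all genes tested, and with DESeq2 1.42.0 and limma 3.58.1 (voom) as alternatives, after tests on simulated data. The authors used DESeq2. Single members were tested by exact permutation of log2(normalized count + 1) in Python 3.11.15, and relations by permutation. All fits were unpaired, and other alternatives are given in the closing section. Named genes are all members, list genes called, genes overlapping members, the endothelial list, and the 5 nearest to *Egln3*. *Epo* was too low for the same search. Some list genes that were not called are also named. Part of them had an edgeR unadjusted p under 0.05, such as *Arnt2*, and others, such as *Vegfa*, *P4ha1*, and *Lox*, followed no set rule. The members, lists, and tests were chosen with earlier results of these data known. Replicates are separate mice. Litters were not given.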

Additional observations from a re-analysis of the deposited data

Results flagged for a closer look

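*Egln3* in NP male 5, at 187 normalized counts, lay far from the other 4 NP males, which were between 79.6 and 107. Its gap to the nearest of them was 0.75 of the range of the group, beyond Dixon's limit for 5 samples. The test was applied to 24 pairs of a member and a group, and chance flags about 1 in 20.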

How the results depend on the processing

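Depth limits *Epo* and, next, *Egln3*, which had as few as 68 counts in a library. The number of members and targets called by diet, and for the interaction, was 0 under every alternative run. In the sex comparison the number of members called was 0 with no filter on low counts, with at least a 1.5-fold change, and in LP mice alone. It was 3 of 8 with limma-voom (*Egln3*, *Hif1an*, and *Hif1a*). Over all genes, 5158 of 42285 were called with no filter. Of 12665 genes, 2370 were called at 1.5-fold, 2344 in LP mice alone, and 5708 with limma-voom. Targets called by sex were 4 at 1.5-fold, 5 in NP mice alone, and 7 in LP mice alone, against 16. Of all 12665 genes tested, 2370, 3087, and 2344 were called in those settings, against 4900, so calls fell over all genes too. Higher targets were 4, 4, and 6 in those settings, against 10. Lower targets were 3 with no filter, 10 with limma-voom, 0 at 1.5-fold, 12 without the 3 females that stood apart, and 1 each in NP and LP mice alone, against 6. The cause was not tested. The *Egln3* sex ratio missed the threshold with no filter (-0.50, edgeR adjusted p = 0.0571).

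With 1 library left out at a time, the log2 ratio of *Egln3* by diet ran from 0.70 to 1.09 in males and from 0.17 to 0.42 in females, and by sex from -0.73 to -0.51. Uncalled members changed sign. In males these were *Egln2* (-0.11 to 0.000037), *Hif1a* (-0.089 to 0.071), *Epas1* (-0.041 to 0.25), *Arnt* (-0.10 to 0.10), and *Vhl* (-0.047 to 0.052). In females they were *Egln1* (-0.0037 to 0.21), *Egln2* (-0.084 to 0.23), *Hif1an* (-0.032 to 0.21), *Hif1a* (-0.42 to 0.059), *Epas1* (-0.041 to 0.55), and *Vhl* (-0.095 to 0.041). For the interaction they were *Egln2* (-0.047 to 0.26), *Hif1an* (-0.19 to 0.063), *Hif1a* (-0.44 to 0.017), *Epas1* (-0.16 to 0.42), *Arnt* (-0.020 to 0.35), and *Vhl* (-0.12 to 0.029). By sex they were *Egln1* (-0.0078 to 0.097) and *Epas1* (-0.26 to 0.036), and *Hif1a* ran from -0.33 to -0.09.

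Signs of uncalled members also turned with limma-voom, for *Egln2* (0.037), *Epas1* (-0.044), and *Arnt* (-0.13) in males, *Egln2* (-0.088) and *Vhl* (0.035) in females, *Egln2* (-0.16) and *Hif1an* (0.072) in the interaction, and *Arnt* (0.065) by sex. *Vhl* turned with filterByExpr (-0.0014) and strand columns (-0.0016) in males and with no filter in females (0.016) and the interaction (0.0025). *Hif1an* turned in the interaction without the 3 females (0.073), and *Egln1* by sex in LP mice alone (-0.026).

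Same-numbered LP and NP mice did not vary together (median correlation -0.155 in males and -0.438 in females), so numbers do not pair them. With the replicate block, the *Egln3* log2 ratio in males was 0.86 and *Vhl* in females was 0.041, and 0 members were called by diet. Levels from the strand columns, chosen after seeing the data, put *Hif1a* rather than *Egln2* next to *Epas1* by mean, within their spread.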

Other observations

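Relations of members with marker lists other than endothelium were given as values only, all from the same 176 and none with an adjusted p under 0.05. *Hif1a* followed the thick ascending limb sum in males (Pearson r = 0.82, permutation p = 0.0034, adjusted p = 0.153; Spearman rho = 0.88, permutation p = 0.0014, adjusted p = 0.245), with an r of 0.92 without LP male 5 and NP male 3. In females this r was 0.70 (exact permutation p = 0.0568, adjusted p = 0.27; rho = 0.50, exact permutation p = 0.216, adjusted p = 0.482), and it was -0.10 without NP female 3 and LP female 1, so it rested on those libraries. *Hif1a* also followed the interferon sum in females, with an r of 0.92 (exact permutation p = 0.0051, adjusted p = 0.153) and a rho of 0.79 (exact permutation p = 0.0279, adjusted p = 0.362), and with an r of 0.80 without LP female 1 and NP female 3. *Egln3* ran against the glucocorticoid sum in females, with an r of -0.84 (exact permutation p = 0.012, adjusted p = 0.189) and a rho of -0.50 (exact permutation p = 0.216, adjusted p = 0.482), and r was -0.35 without LP female 2 and LP female 1. These relations were chosen after their values were seen. Of the other marker lists, the blood list had 2 of 5 genes at 0 in every group and summed to 10.1 to 75.2 CPM in males and 19.1 to 174 CPM in females, and the fat list to 3.81 to 77.3 CPM in males and 6.77 to 227 CPM in females. The distal convoluted tubule list had 3 of 4 genes called lower in males, and the collecting duct and inner medulla list 2 of 5 tested, against 19.8% of all genes tested.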
